A study of Mus musculus with 6 samples.

Results

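The 9 genes described here encode the MHC class I heavy chains H2-K1, H2-D1, H2-Q4, H2-T22 and H2-T23, their shared light chain B2m, the peptide transporter subunits Tap1 and Tap2, and tapasin (Tapbp). They were taken by name from the list that defines the set, and 8 of the 9 stand in the deposited count table of 12625 genes. H2-T22 is not analysed here. The data are RNA sequencing counts of C2C12 cells, a mouse myoblast line of C3H origin that fuses into myotubes in culture. Myotubes differentiated for 5 days were given recombinant mouse RANKL at 100 ng/ml for 72 h (3 libraries) or vehicle (3 libraries), and the comparison asks what RANKL does to the RNA of these cells. RANKL is the TNF-family ligand of the receptor RANK, best known for driving osteoclast formation through NF-kB. All samples are 1 cell line in culture, and the labels do not state whether replicates came from different cultures. P-values then measure only the spread between these libraries, which may be technical.

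MHC class I molecules show peptides from inside the cell to CD8 T cells and to receptors of NK cells. A heavy chain folds in the endoplasmic reticulum with B2m, the transporter made of Tap1 and Tap2 brings in peptides that the proteasome has cut, and tapasin holds the empty heavy chain at the transporter until a peptide is bound. Resting muscle fibres are known for little class I at their surface, and inflamed fibres for more. The promoters of classical class I genes are known for a conserved block made of an NF-kB site (enhancer A), an interferon-stimulated response element (ISRE) and, nearer the start, the X and Y boxes, bound by RFX, CREB/ATF and NF-Y proteins with the coactivator Nlrc5.

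The upstream sequences of 5 measured members are shown because they differ in which parts of this block they hold. They are the 250 bases before the first RefSeq transcript start listed for each gene, from RefSeq on build GRCm38.p6, read 5′ to 3′ on the gene's strand. H2-K1 lies at chr17:34000348-34000597 (minus strand), H2-D1 at chr17:35262844-35263093 (plus), H2-Q4 at chr17:35379367-35379616 (plus), H2-T23 at chr17:36032702-36032951 (minus) and B2m at chr2:122147437-122147686 (plus). Capitals mark every match, on either strand, to the 6 patterns named after the sequences.
H2-K1: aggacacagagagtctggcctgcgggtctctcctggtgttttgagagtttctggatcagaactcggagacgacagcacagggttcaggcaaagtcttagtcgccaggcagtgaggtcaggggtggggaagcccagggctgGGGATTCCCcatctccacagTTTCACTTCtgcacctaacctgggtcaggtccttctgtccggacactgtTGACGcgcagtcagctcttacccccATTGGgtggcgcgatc
H2-D1: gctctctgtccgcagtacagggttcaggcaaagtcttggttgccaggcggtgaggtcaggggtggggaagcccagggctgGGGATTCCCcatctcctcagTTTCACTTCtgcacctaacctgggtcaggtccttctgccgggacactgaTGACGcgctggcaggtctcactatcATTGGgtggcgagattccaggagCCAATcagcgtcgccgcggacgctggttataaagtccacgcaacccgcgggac
H2-Q4: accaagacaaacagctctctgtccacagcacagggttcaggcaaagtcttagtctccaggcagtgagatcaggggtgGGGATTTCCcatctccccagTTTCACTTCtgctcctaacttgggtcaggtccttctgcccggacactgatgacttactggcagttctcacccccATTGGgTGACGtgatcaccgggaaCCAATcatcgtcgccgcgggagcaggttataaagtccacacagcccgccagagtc
H2-T23: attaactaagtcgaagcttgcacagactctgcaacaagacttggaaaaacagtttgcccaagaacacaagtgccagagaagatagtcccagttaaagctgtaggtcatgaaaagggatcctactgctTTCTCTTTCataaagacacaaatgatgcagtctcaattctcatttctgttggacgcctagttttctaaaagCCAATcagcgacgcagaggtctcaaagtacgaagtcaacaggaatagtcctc
B2m: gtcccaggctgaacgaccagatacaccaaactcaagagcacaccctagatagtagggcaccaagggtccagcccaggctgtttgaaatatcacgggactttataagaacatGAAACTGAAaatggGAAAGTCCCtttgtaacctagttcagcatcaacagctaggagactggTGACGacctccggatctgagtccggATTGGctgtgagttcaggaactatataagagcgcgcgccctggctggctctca

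The pattern GGGANTNCC, an NF-kB site of the enhancer A type, was found upstream of H2-K1, H2-D1 and H2-Q4, and in 3.3% of the 27025 promoters of the same length (4.0% of the 9625 whose genes were tested here). In H2-K1 and H2-D1 it matched both strands of the same site, at positions -110 to -102 and -170 to -162 (the base before the start being -1), and in H2-Q4 it matched 1 strand at -173 to -165. The pattern GGGANTTTC, an NF-kB site of the immunoglobulin kappa type, was found upstream of B2m, and in 1.0% of all promoters (0.8% of those of tested genes). The ISRE core GAANNGAAA (form a) followed the NF-kB match in H2-K1, H2-D1 and H2-Q4 and stood in 6.3% of all promoters (4.9% for tested genes). The core GAAANNGAA (form b) was found upstream of H2-T23, B2m and the unmeasured H2-T22, and in 7.2% of all promoters (5.9% for tested genes). H2-T23 held neither NF-kB pattern and no TGACG in this window. No match to 1 pattern overlapped a match to another. Both NF-kB patterns and form b were each shortened by 1 base at one end after matches to the longer forms had been seen; the same members matched the longer forms, which were found in a smaller share of all promoters. The CREB/ATF element core TGACG of the X2 box and the NF-Y site CCAAT of the Y box are short and common, at 17.9% and 34.5% of all promoters, and 27.6% and 36.5% of those of tested genes. CCAAT or its complement was found in all 8 members with an entry in the promoter table, and TGACG in 6 of them. The order of matches was not required, so a TGACG match need not be the X2 box. In H2-Q4 TGACG (-73 to -69) lay between the CCAAT matches (-79 to -75 and -55 to -51). In H2-T22 and Tap1 it lay nearer the start than any CCAAT match. Tap2 had no entry. In Tap1 and Tapbp neither NF-kB pattern nor either ISRE core was found in this window, which for Tapbp lies wholly inside the GENCODE gene. A global alignment of the windows gave 202 identical bases of 250 for H2-D1 with H2-Q4, and 170 for H2-K1 with H2-D1. The RefSeq start used lies 3579 bases inside the GENCODE gene for Tapbp and 364 bases inside it for H2-D1, whose windows lie wholly within the gene, and the window of H2-T23 overlaps its gene by 154 bases, so distances and matches depend on which start is taken. A match describes letters in the reference genome, and no binding was measured.

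**Figure D1:**
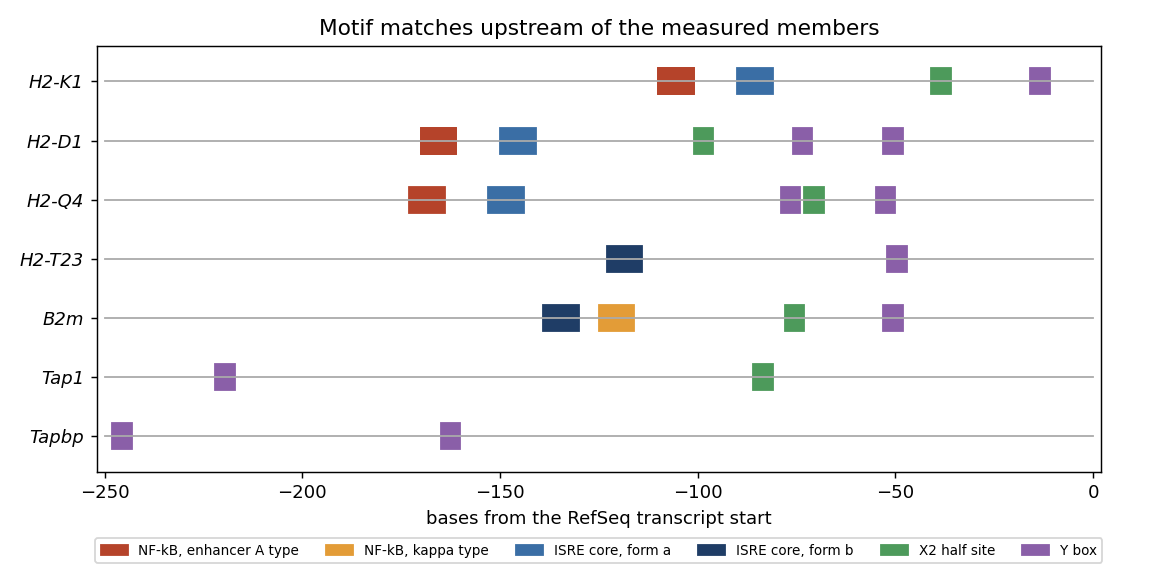
Matches to the 6 patterns in the 250 bases upstream of 7 measured members; the x axis is bases from the RefSeq transcript start and each box is 1 match, coloured by pattern. H2-K1, H2-D1 and H2-Q4 carry the enhancer A type NF-kB match followed by form a of the ISRE core, while B2m carries the kappa type match beside form b.

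All members except B2m lie in the MHC region of chromosome 17 on mm10 (GENCODE M21), and all are protein-coding. From the centromeric end these are Tapbp (33915899 to 33929292), H2-K1 (33996017 to 34000347), Tap1 (34187553 to 34197225), Tap2 (34203527 to 34216321), H2-D1 (35262730 to 35267499), H2-Q4 (35379617 to 35385290), H2-T23 (36029773 to 36032855) and H2-T22 (36037128 to 36042747). B2m lies on chromosome 2 from 122147686 to 122153083.

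Class I genes are polymorphic and have close paralogs, which bears on the counts. The reads were 75 bases long, and of all 75-base words in the GENCODE transcripts of a member, 3.1% for H2-K1, 5.4% for H2-D1, 5.91% for H2-T23 and 7.02% for H2-Q4 also stood in a transcript of another gene. The share was 18.46% for H2-T22, mostly with H2-T10, 1.1% for Tapbp, and 0 words were shared for B2m, Tap1 and Tap2. Exons of H2-Q4 overlap those of Gm11131 on the opposite strand over 496 bases, exons of Tap1 those of Psmb9 over 212, and exons of Tap2 those of Gm20496 and Gm15821 over 698. Exons of Tapbp share 149 bases with Zbtb22 on the same strand and 904 with Gm19412 on the opposite one. The sources used here give neither the assignment of shared reads nor the use of strand. The mm10 reference comes from C57BL/6J, whose class I alleles differ from those of C3H, and the effect of that difference on mapping was not tested.

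Library totals lay between 32732604 and 37445933 counts under RANKL and between 33566746 and 39677999 under vehicle. Levels below are CPM, read counts scaled to library size with TMM factors, given as mean ± SD where not given per library, and log2 fold changes carry their SE. A gene was called, or rose or fell, where its Benjamini-Hochberg adjusted p over all genes was under 0.05. Across the table edgeR called 676 genes higher (5.35%) and 947 lower (7.5%) of 12625. Of these calls 41.7% were higher, against 63.1% (1070 higher, 626 lower) when libraries were scaled to total counts. Of the 10 myotube markers listed, Myh3, Myh8, Acta1, Ckm, Des, Tnnt3, Mylpf, Myog, Ttn and Cdh15, all were measured, and 4 were called lower (Myh3, Myh8, Acta1 and Cdh15). Their summed level was 27148 to 27737 CPM under RANKL and 28894 to 31220 CPM under vehicle. In bulk RNA a change in how many cells are of a kind and a change in RNA per cell cannot be told apart.

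Class I and peptide-loading RNA was higher under RANKL by small amounts. Of the 8 measured members 7 passed the test as higher, against 5.35% of all genes, and 0 as lower. In the same 7 members every RANKL library lay above every vehicle library, which held for 14.9% of all genes. The set was chosen with earlier results of these data known, so both contrasts with all genes are descriptive and no independent evidence. The members' median log2 fold change, RANKL over vehicle, was 0.32, with a range of 0.11 to 0.66, and the median over all genes tested was 0.0047. The count of members called was 4 without RANKL replicate 2, vehicle replicate 1 or vehicle replicate 2. The calls of H2-K1, H2-D1, H2-Q4 and Tapbp held in all 14 alternatives.

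Among the heavy chains H2-K1, a classical chain that presents peptides to CD8 T cells, was the most abundant. It had 81.5, 75.9 and 69.8 CPM in RANKL replicates 1 to 3, against 61.8, 62.7 and 60.5 CPM in vehicle replicates 1 to 3. All RANKL libraries were above all vehicle libraries, and the RANKL libraries were spread more widely. By the quasi-likelihood test of edgeR (n = 3 libraries in each group) H2-K1 rose 1.23-fold, a log2 fold change of 0.30 ± 0.05 (SE; adjusted p = 0.00111).

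H2-D1, the other classical chain measured, had 23.6, 25.0 and 22.2 CPM under RANKL and 18.3, 19.2 and 18.6 CPM under vehicle. The groups did not overlap, and the lowest RANKL library was replicate 3, as for H2-K1. H2-D1 rose 1.26-fold, a log2 fold change of 0.34 ± 0.06 (SE; adjusted p = 0.00159 by edgeR).

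H2-Q4, a non-classical chain of the Q region, had 10.6, 9.78 and 9.51 CPM under RANKL and 6.61, 6.19 and 6.15 CPM under vehicle. Its groups stood well apart and both were narrow. H2-Q4 rose 1.58-fold, a log2 fold change of 0.66 ± 0.08 (SE; adjusted p = 0.000143 by edgeR). Its 95% interval of 0.48 to 0.83 lay above the intervals of H2-K1 (0.19 to 0.40), H2-D1 (0.21 to 0.46), H2-T23 (0.09 to 0.32), B2m (0.04 to 0.18) and Tapbp (0.23 to 0.39), and overlapped those of Tap1 and Tap2. Its share of the counts of the 4 measured heavy chains was 6.98% to 7.45% in RANKL libraries and 5.51% to 5.95% in vehicle libraries, while H2-T23 held 19.1% to 21.1% in RANKL libraries and 21.6% to 21.9% in vehicle libraries, so that every RANKL library was below every vehicle library. H2-K1 held 54.1% to 57.0% in RANKL libraries and 55.7% in each vehicle library. Among the measured chains H2-Q4 has the highest share of words in common with other genes.

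H2-T23 (Qa-1), a non-classical chain that shows signal peptides of other class I chains to an inhibitory receptor of NK cells, had 27.4, 29.6 and 26.2 CPM under RANKL. Under vehicle it had 24.3, 24.3 and 23.5 CPM. The groups did not overlap, and the gap between the nearest libraries was small. H2-T23 rose 1.15-fold, a log2 fold change of 0.20 ± 0.05 (SE; adjusted p = 0.0225 by edgeR), and its call ended without any 1 vehicle replicate or without RANKL replicate 2, with an adjusted p of up to 0.108.

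The 4 chains were also summed. Most of the genes with which they share the most words lie outside the sum, so it does not hold all reads that could pass between paralogs. The sum was 143, 140 and 128 CPM in RANKL replicates 1 to 3 and 111, 112 and 109 CPM in vehicle replicates 1 to 3, a ratio of 1.24 between the group means. With the 6 other measured H2 chains added the ratio was also 1.24.

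B2m, the light chain that every class I molecule needs, had 256, 257 and 249 CPM under RANKL and 229, 232 and 243 CPM under vehicle. The highest vehicle library, replicate 3, came close to the lowest RANKL library. B2m rose 1.08-fold, a log2 fold change of 0.11 ± 0.03 (SE; adjusted p = 0.0370 by edgeR). That call ended without RANKL replicate 2, vehicle replicate 1 or vehicle replicate 2, and with limma on the deposited log2 values.

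Tapasin (Tapbp), which holds heavy chains at the transporter and edits their peptides, had 116, 126 and 126 CPM under RANKL and 99.2, 97.6 and 100.5 CPM under vehicle. Here RANKL replicate 1 was the lowest of its group, and still above every vehicle library. Tapbp rose 1.24-fold, a log2 fold change of 0.31 ± 0.04 (SE; adjusted p = 0.000143 by edgeR).

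The transporter subunits were the least abundant members. Tap2 had 5.57, 6.41 and 5.62 CPM under RANKL and 4.94, 4.72 and 4.03 CPM under vehicle. The groups did not overlap. Tap2 rose 1.28-fold, a log2 fold change of 0.36 ± 0.11 (SE; adjusted p = 0.0440 by edgeR), and was not called in 7 of the 14 alternatives. These were DESeq2's test, limma on the deposited log2 values, and the fits without any 1 library other than RANKL replicate 1, with an adjusted p of up to 0.164.

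Tap1 was counted 50, 42 and 25 times in RANKL replicates 1 to 3, which is 1.33, 1.23 and 0.755 CPM. In vehicle replicates 1 to 3 it was counted 31, 29 and 27 times, which is 0.798, 0.872 and 0.731 CPM. RANKL replicates 1 and 2 were above all vehicle libraries, while RANKL replicate 3 lay among them. The log2 fold change of Tap1 was 0.48 ± 0.24 (SE) with a 95% interval of -0.03 to 0.99, and it did not pass the test (adjusted p = 0.216 by edgeR). It passed in 0 of 13 alternatives, with an adjusted p from 0.0569 to 0.494. At this depth neither no change nor a rise of the size seen in H2-Q4 lies outside that interval.

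**Figure D2:**
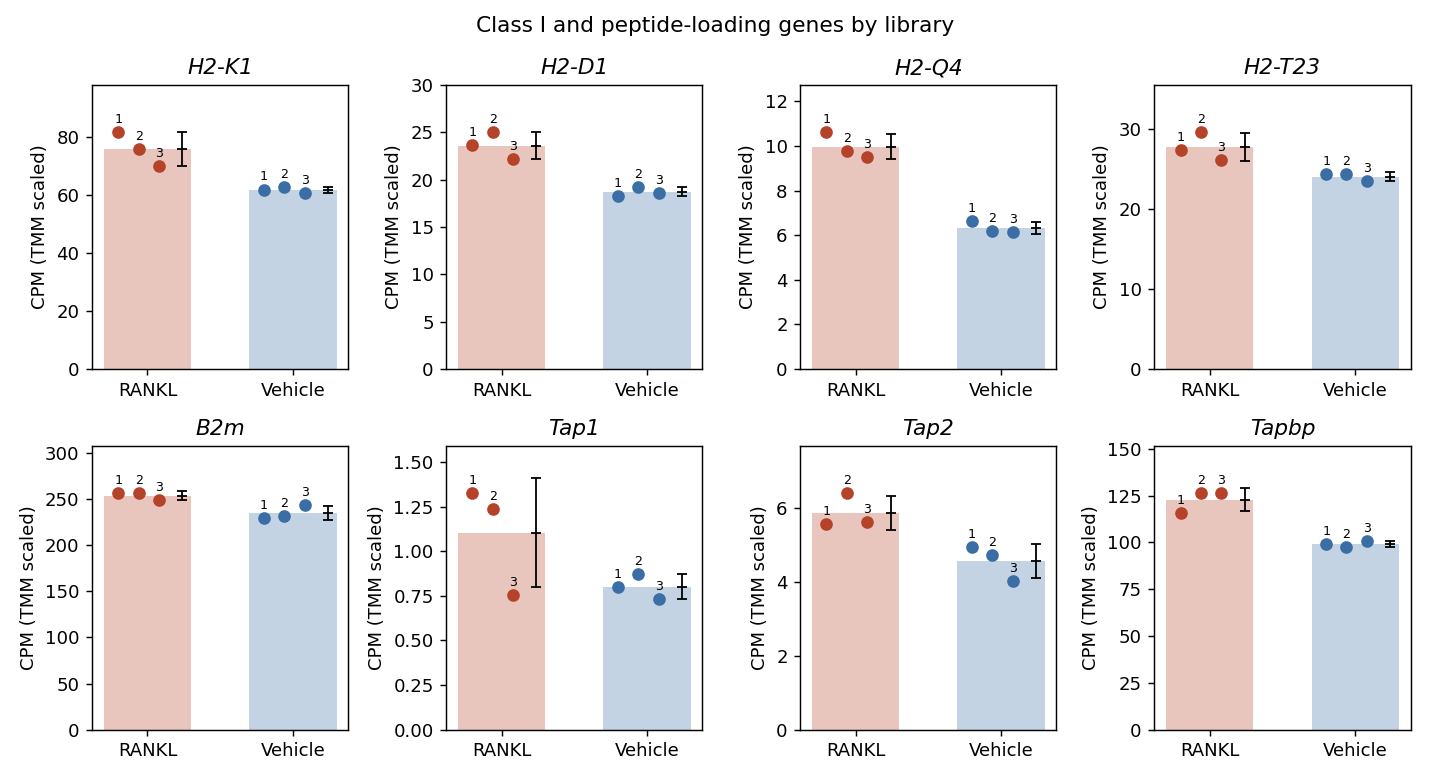
Level of each of the 8 measured members in CPM (y axes from 0, TMM scaled), with 1 point per library labelled by its replicate number, bars at the group mean and lines of ± 1 SD, for RANKL and vehicle (n = 3 each). Every RANKL point lies above every vehicle point except for Tap1, where RANKL replicate 3 (0.755 CPM) lies among the vehicle libraries.

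The RANKL libraries differed among themselves, in an order that was not the same for all members. RANKL replicate 3 was the lowest of its group in 6 of the 8 members, and replicate 1 in 2. Replicate 2 was the highest in 4, replicate 1 in 3 and replicate 3 in 1. These counts were not set against those of all genes. The mean over members of log2 CPM, each less its vehicle mean, was 0.38 in RANKL replicate 1, 0.40 in replicate 2 and 0.22 in replicate 3. In vehicle replicates 1, 2 and 3 it was 0.02, 0.02 and -0.04. Leaving out RANKL replicate 3 moved H2-K1 to a log2 fold change of 0.36 and Tap1 to 0.68.

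Levels of different genes can be compared only per length, for which the deposited log2 RPKM values were used (RPKM is CPM per kilobase of gene, with the length the authors used). B2m stood far above the rest, at 8.21 ± 0.03 log2 RPKM under RANKL and 8.10 ± 0.05 under vehicle (mean ± SD, n = 3 each), above 98.7% of all genes under vehicle. H2-K1 had 5.52 ± 0.11 log2 RPKM under RANKL and 5.23 ± 0.03 under vehicle, and Tapbp 5.48 ± 0.07 and 5.17 ± 0.02. These neighbours overlapped under RANKL, and under vehicle the lowest H2-K1 library (5.20) was just above the highest of Tapbp (5.19). H2-T23 had 4.40 ± 0.09 log2 RPKM under RANKL and 4.19 ± 0.03 under vehicle, H2-D1 3.77 ± 0.09 and 3.43 ± 0.04, and H2-Q4 2.48 ± 0.08 and 1.83 ± 0.06. The transporter came last, Tap2 with 1.25 ± 0.11 under RANKL and 0.89 ± 0.15 under vehicle, and Tap1 with -1.38 ± 0.42 and -1.79 ± 0.12. Apart from H2-K1 and Tapbp, no neighbours in this order overlapped in any library, and the order was the same in both groups.

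**Figure D3:**
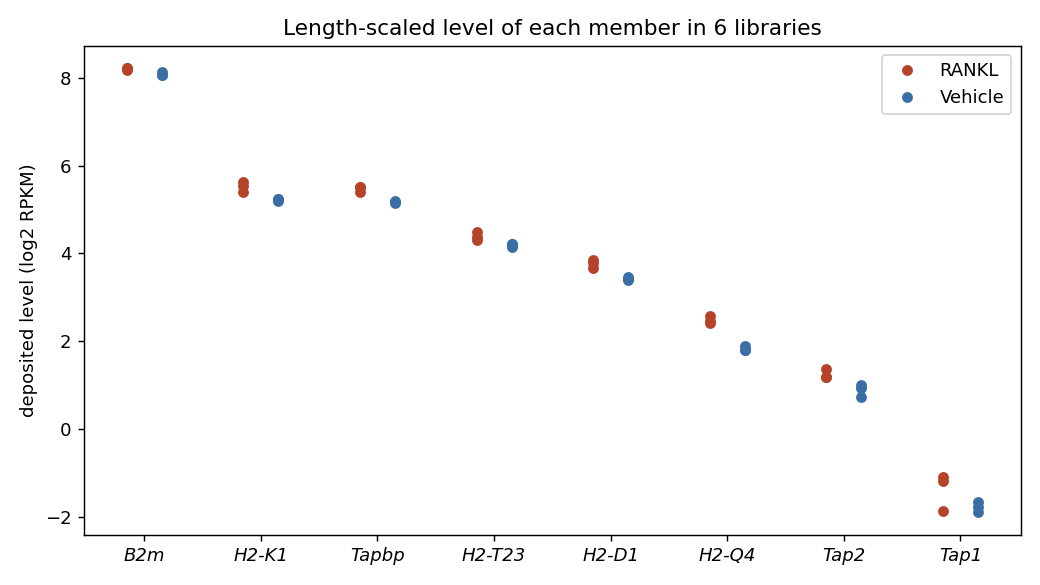
Deposited level of each measured member in log2 RPKM (y axis), 1 point per library, with RANKL left of vehicle for each gene and genes ordered by their vehicle mean. B2m lies near 8, H2-K1 and Tapbp between 5.15 and 5.63, and Tap1 below -1 in every library.

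The remaining heavy chains of the family mostly had low counts. Of 29 other class I and class I-like genes listed, 11 were measured, and edgeR called 0 of them (3 had an unadjusted p under 0.05), as did each of the 14 alternatives. H2-T10, a close relative of H2-T22, had 0.769, 0.764 and 0.604 CPM under RANKL and 0.515, 0.421 and 0.325 CPM under vehicle. Its log2 fold change was 0.76 ± 0.27 (SE; adjusted p = 0.0828 by edgeR). Vehicle replicates 2 and 3 lay under 0.504 CPM, a floor that each gene kept in the deposit reached in 3 or more libraries. H2-T10 could not have been kept on its vehicle libraries alone, which may raise its fold change. H2-Q1 and H2-M3, which binds formylated peptides, had log2 fold changes of 0.45 ± 0.18 and 0.35 ± 0.16. In 4 of the 11 genes (H2-T10, H2-Q1, H2-M3 and Mill2) all RANKL libraries were above all vehicle libraries, which held for 14.9% of all genes. H2-T10, H2-Q1 and H2-M3 were picked out after their values were seen. Fcgrt, the neonatal Fc receptor chain, which also pairs with B2m, had 55.0 ± 1.28 CPM under RANKL and 56.9 ± 2.02 CPM under vehicle (log2 fold change -0.05 ± 0.04, adjusted p = 0.440 by edgeR; also picked out afterwards). The median log2 fold change over these 11 was 0.11.

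Another 10 genes of peptide loading and class I folding were listed, and all were measured. Of these, 1 was called higher and 0 lower, against 5.35% and 7.5% of all genes (median log2 fold change 0.01). That 1 was Erap1, the aminopeptidase that trims peptides in the endoplasmic reticulum, with 23.1, 25.0 and 25.6 CPM under RANKL and 19.1, 19.7 and 19.0 CPM under vehicle. Erap1 rose 1.27-fold, a log2 fold change of 0.35 ± 0.06 (SE; adjusted p = 0.000997 by edgeR), and was called in all 14 alternatives. The general chaperones calreticulin (Calr), calnexin (Canx) and Pdia3 were far more abundant and had log2 fold changes of -0.05 ± 0.03, 0.01 ± 0.04 and 0.03 ± 0.03. None of these 3, chosen after their values were seen, passed the test.

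Upstream of peptide transport, 8 of 10 listed proteasome subunits and activators were measured. Of them 2 were called higher, against 5.35% of all genes. Psmb10, a catalytic subunit of the immunoproteasome, rose 1.46-fold (log2 fold change 0.54 ± 0.08, adjusted p = 0.000555 by edgeR) and Psme2, of the PA28 activator, 1.19-fold (0.25 ± 0.06, adjusted p = 0.0159) (not called without RANKL replicate 2, vehicle replicate 1 or vehicle replicate 2). Psmb8 and Psmb9, immunoproteasome subunits encoded beside Tap1, are not analysed here.

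Of 16 transcription factors listed for class I promoters, all measured, 3 were called higher, against 5.35% of all genes, and 0 lower. The count called higher was 2 without RANKL replicate 2, vehicle replicate 1 or vehicle replicate 3. Irf1, which binds the ISRE, had 42.3, 43.0 and 41.5 CPM under RANKL and 27.1, 29.0 and 27.4 CPM under vehicle, in 2 tight groups far apart. Irf1 rose 1.52-fold (log2 fold change 0.60 ± 0.04, adjusted p = 7.83e-07 by edgeR). Nfkb1, the precursor of the NF-kB subunit p50, rose 1.21-fold to 113 ± 2.13 CPM, against 93.6 ± 1.66 CPM under vehicle. Creb1, which binds the X2 box element, rose by log2 0.18 ± 0.05, and its call ended without RANKL replicate 2 or without vehicle replicate 1 or 3, among others. Nlrc5, the class I coactivator, was counted low, at 1.56 ± 0.36 CPM under RANKL and 1.19 ± 0.12 CPM under vehicle, and did not pass (log2 fold change 0.41 ± 0.20, adjusted p = 0.218 by edgeR).

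**Figure D4:**
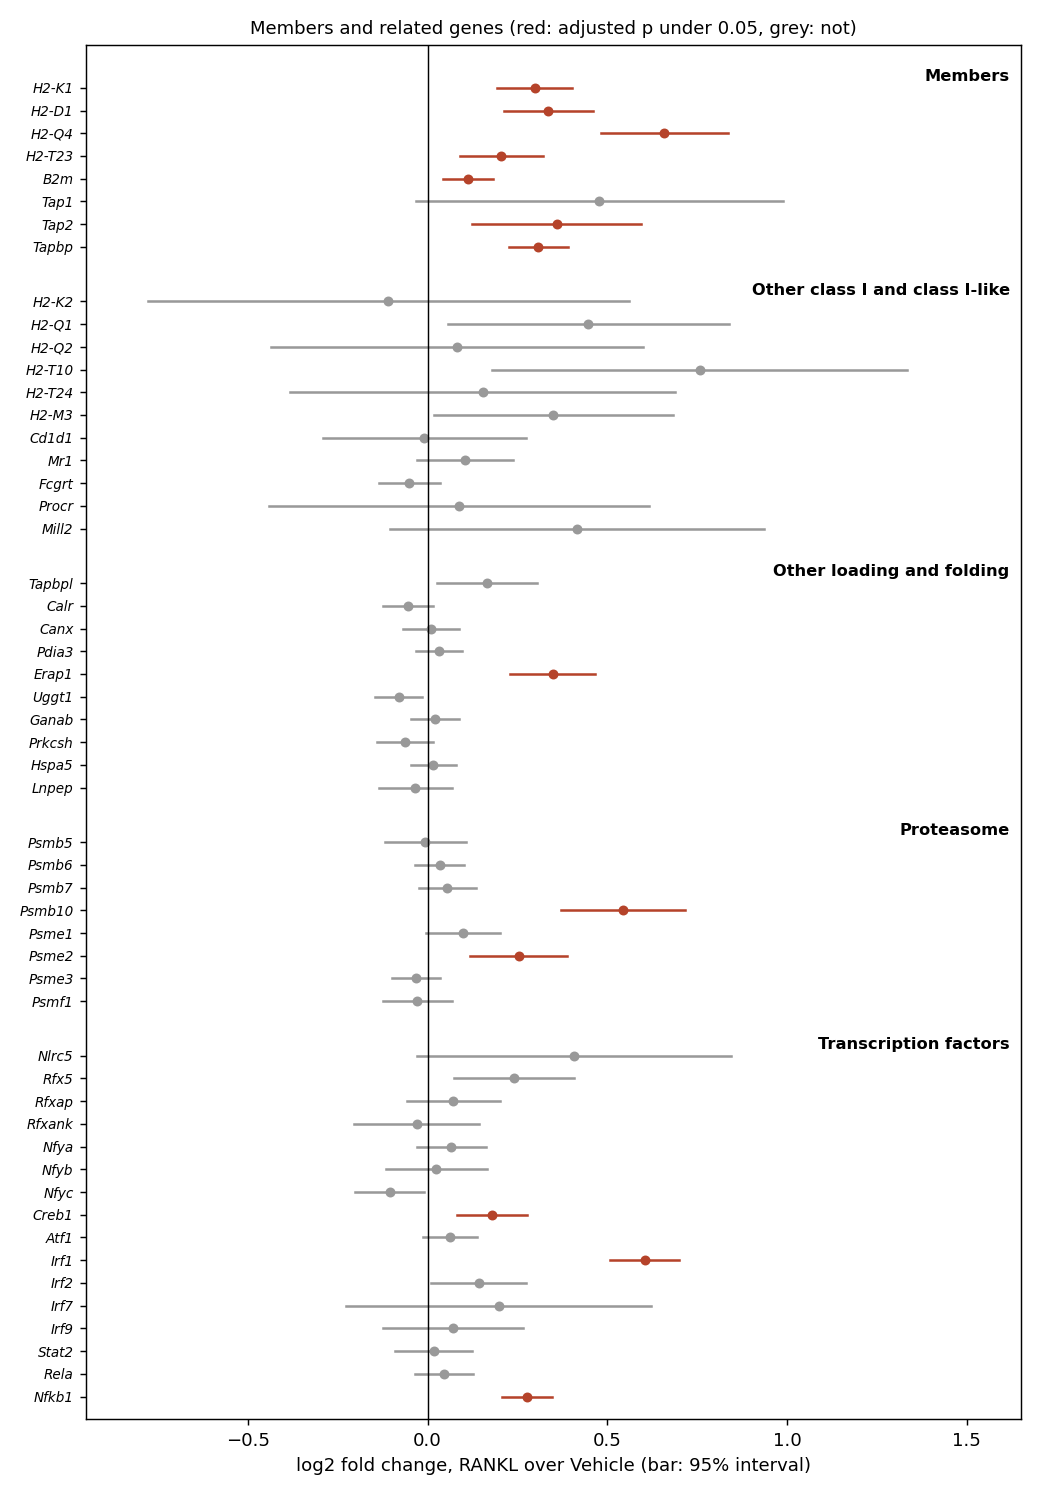
Log2 fold change, RANKL over vehicle (x axis), with its 95% interval for the 8 members and for every measured gene of 4 related lists; red marks an adjusted p under 0.05 by edgeR and grey the rest. The members lie between 0.11 and 0.66, while most other loading, folding and proteasome genes lie near 0.

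Class I genes belong to the interferon-stimulated genes, so a list of those was set beside them. Of 22 listed, 17 were measured and 7 called higher, against 5.35% of all genes, with a median log2 fold change of 0.33. The chemokine Cxcl10, which draws T cells through the receptor CXCR3, was counted 48, 42 and 31 times in RANKL libraries and 4, 1 and 5 times in vehicle libraries, a log2 fold change of 3.60 ± 0.37 (adjusted p = 1.83e-05 by edgeR). The interferon-inducible GTPases Gbp2, Gbp3 and Gbp7 rose 3.64-fold, 4.63-fold and 2.78-fold. Gbp2 had 7.77 ± 1.11 CPM under RANKL and 2.12 ± 0.24 CPM under vehicle, Gbp3 2.47 ± 0.20 and 0.53 ± 0.08 CPM, and Gbp7 1.72 ± 0.36 and 0.62 ± 0.21 CPM. Low genes had been removed before deposit, and each gene kept reached 0.504 CPM in 3 or more libraries. Cxcl10 was under this floor in every vehicle library (0.10, 0.03 and 0.14 CPM). Gbp3 and Gbp7 were also under 0.504 CPM in vehicle replicate 1 (0.46 and 0.39 CPM). Ifit1, not called and named only for this, had 0.36, 0.33 and 0.49 CPM in vehicle replicates 1 to 3. It is counted in the list median. Cxcl10 and Ifit1 were thus kept through their RANKL libraries alone and could appear only as higher. The 7 calls, which include Cxcl10, and the list median may lean upward through this filter, which was not tested. Ddx58 (RIG-I), a sensor of viral RNA, rose 1.32-fold and Irgm1, another GTPase, 1.19-fold. The calls of Cxcl10, Gbp2, Gbp3, Gbp7, Ddx58 and Irgm1 held in every alternative that gave a value. The remaining call of the list (adjusted p = 0.0336 by edgeR) held in 9 of 14 alternatives. Across the alternatives 6 to 9 genes of the list were called higher. Neither Isg15 (log2 fold change -0.07 ± 0.24) nor Ifit3 (-0.01 ± 0.21) passed the test. MHC class II was scarcely measured: of 12 listed genes H2-DMa and Lgmn were in the table, and edgeR called 0 (1 had an unadjusted p under 0.05), as did each alternative. Ciita, the class II coactivator, and Cd74 are not analysed here.

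Leukocytes express much class I, so their markers were read beside these results. Of 12 listed, Cd68 and Itgam were measured, and Ptprc, which marks all leukocytes, is not analysed here. The summed level of both was 1.54 to 2.47 CPM under RANKL and 1.20 to 1.35 CPM under vehicle. The groups lay apart in this sum but overlapped for Cd68 alone and for Itgam alone. Counts were low, at 13 to 47 per gene and library. Cd68 had a log2 fold change of 0.64 ± 0.33 and Itgam one of 0.49 ± 0.24, and edgeR called 0 of them (0 had an unadjusted p under 0.05), as did each alternative. Their part in the class I result was not tested. Of 6 endothelial markers only Tek was measured, at 0.96 ± 0.11 CPM under RANKL and 1.00 ± 0.38 CPM under vehicle.

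Outside the members, the genes nearest to their mean pattern over the 6 libraries were Glipr2, Cd34, Tmem140, Plk4 and Fstl1. Likeness was the root mean square difference in log2 CPM, each gene less its vehicle mean, among the 10153 genes that averaged 5 CPM or more, and it lay between 0.03 and 0.04 for these 5. Among the members, each of which is part of that mean, it was 0.03 for H2-D1, 0.05 for H2-K1 and 0.23 for H2-Q4, the farthest. The 5 genes had log2 fold changes of 0.29 to 0.35, which follows from picking them by nearness to the members' mean.

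**Figure D5:**
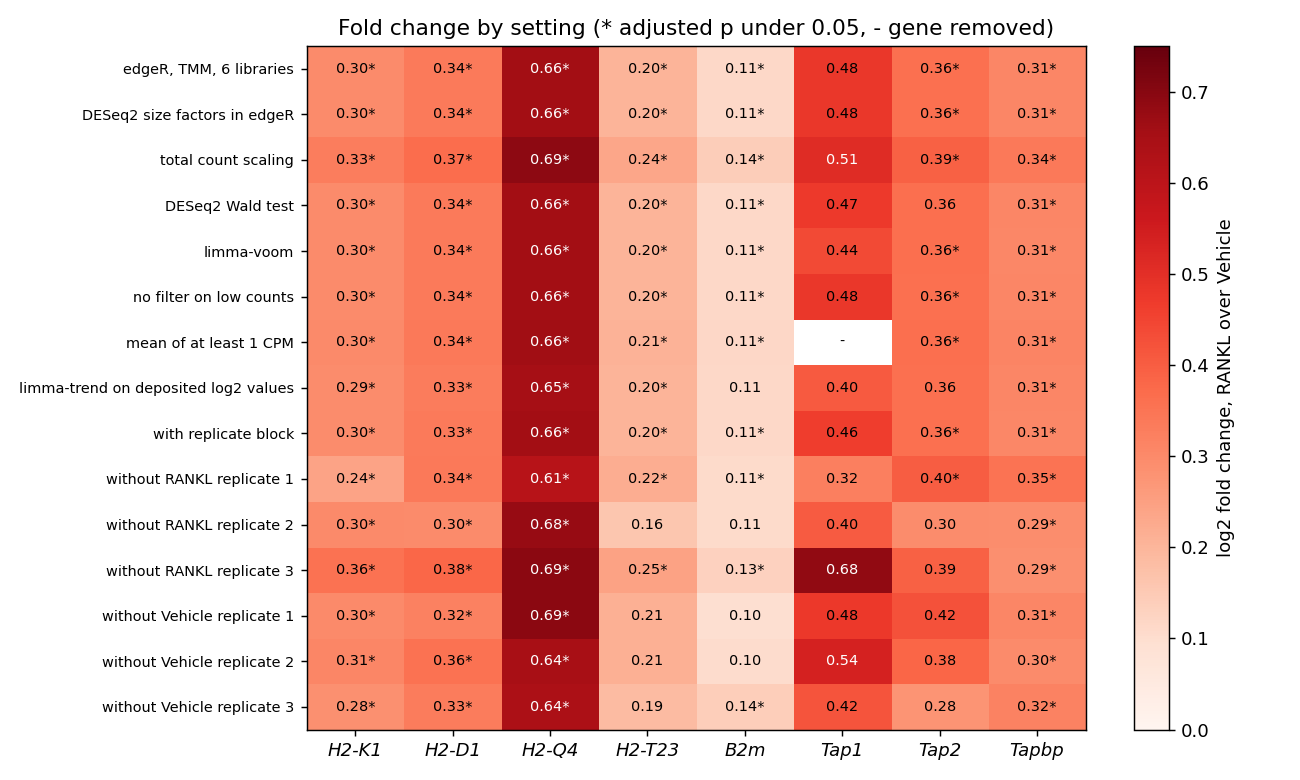
Log2 fold change, RANKL over vehicle, of each measured member (columns) in the fit reported here and in 14 alternatives (rows), with an asterisk for an adjusted p under 0.05. Every value is above 0, and the columns of H2-K1, H2-D1, H2-Q4 and Tapbp carry an asterisk throughout.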

How the data were processed

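Whole-number counts for 12625 gene symbols in 6 libraries were deposited by the authors. A further 4708 empty lines were left out. The submitters' processing notes name FastQC, STAR, edgeR and mm10 with no version. Counter, annotation and use of strand: not given in the sources used here. In every gene the third-highest library had at least 0.504 CPM, so low genes had been removed before deposit. The second deposited table holds log2 values, read from comparison with the counts as log2 RPKM.

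Counts were tested with edgeR 4.0.16 (R 4.3.3; TMM, filterByExpr, which removed 0 genes, quasi-likelihood F test, Benjamini-Hochberg over all genes, threshold 0.05). SE is the size of a log2 fold change divided by the square root of F. Alternatives used DESeq2 1.42.0 and limma 3.58.1, other scalings and filters, a replicate block, and each library left out. On simulated data for this comparison (12625 genes), 69% of changes of log2 0.3 and 99% of log2 1 were recovered, and 6.67% of calls were unchanged genes. Changes were planted in far fewer genes than were called in the real data, on which recovery depends. They were planted only in genes averaging at least 1 CPM, so genes as low as Tap1 are not covered. Within-group library pairs had chi-square values of 3.42 to 9.62 per gene, so all were kept.

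Members and lists were chosen with earlier results of these data known. All members were named, and from each list up to 6 genes past the threshold, a few fixed genes, and the 5 nearest by likeness. Of the measured genes that this rule names, 1 is not reported here, and its list is counted without it. Promoter patterns were searched on both strands of the RefSeq windows, and 3 of the 6 were shortened after their first matches had been seen, so the shares of all promoters holding them depend on a choice made with the data in view.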

Additional observations from a re-analysis of the deposited data

How the results depend on the processing

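All 111 alternative values of the 8 members were above 0, and 83 of them passed the threshold. The number of members called higher was 5 to 7 in the alternatives that kept all 6 libraries, and 4 to 7 when 1 library was left out. With total count scaling the table held 1070 higher and 626 lower genes in place of 676 and 947, and the members called stayed at 7. Leaving out 1 library gave 373 to 746 higher and 537 to 880 lower genes. These fits have fewer samples. The heavy chain sum had a log2 ratio of 0.31, and 0.34 with total count scaling. Tap1 had no value with a minimum mean of 1 CPM. With a replicate block 7 members, 730 higher and 1008 lower genes were called. The labels do not say whether a shared replicate number marks a shared batch, and these values do not settle it. Deviations of same-numbered libraries had r of 0.16, 0.08 and -0.02 over 10160 genes. Pairs with different numbers had r from -0.20 to 0.13, the highest being RANKL replicate 2 with vehicle replicate 3. Depth limits Tap1 most, with 25 to 50 counts per RANKL library and 27 to 31 per vehicle library.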

Other observations

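Ligands by which T and NK cells read other cells were listed beside class I. Of 17 listed genes 8 were measured, with 2 called higher and 0 lower, against 5.35% and 7.5% of all genes. Their median log2 fold change was 0.03. Cd47, a signal against uptake by phagocytes, rose to 59.5 ± 2.43 CPM under RANKL, against 47.8 ± 2.19 CPM under vehicle (log2 fold change 0.32 ± 0.04, adjusted p = 0.000383 by edgeR). Clec2d, a ligand of NK cell receptors, rose 1.27-fold (0.34 ± 0.07, adjusted p = 0.00791 by edgeR). Both calls held in all 14 alternatives.

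Within the stretch of chromosome 17 that spans the members, 65 other protein-coding genes outside all lists were measured. Of these 2 were called higher and 6 lower, against 5.35% and 7.5% of all genes, with a median log2 fold change of -0.02. The higher ones were Cfb, complement factor B, at 3.55 ± 0.43 CPM under RANKL and 0.56 ± 0.20 CPM under vehicle, and Ier3, with a log2 fold change of 0.34 ± 0.07 (both picked out after their values were seen).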
